A study of Mus musculus with 217 samples.

Results

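NF-kappaB is the transcription factor family through which bacterial endotoxin and inflammatory cytokines switch on inflammatory genes, and the 10 genes described here are the factors and the inhibitors that hold them back. They were chosen by name: the subunit genes Nfkb1, Nfkb2, Rela and Relb, the inhibitors Nfkbia and Nfkbie, the nuclear inhibitor-like proteins Nfkbiz and Bcl3, and the feedback regulators Tnfaip3 and Tnip1. All 10 were found among the 52550 genes of the deposited count files, and all 10 passed the filter on low counts in every comparison. RiboTagEC mice (Cdh5CreERT2/+; Rpl22HA/+, C57BL/6J, adult) carry an HA tag on the ribosomal protein Rpl22 in cells that express Cre from the VE-cadherin (Cdh5) promoter, so that an HA antibody pulls tagged ribosomes and the mRNA on them out of a whole-tissue lysate. All groups shared this genotype and received tamoxifen by gavage, 5 mg given 4 times, at 4 to 6 weeks of age. Mice were given lipopolysaccharide (LPS, bacterial endotoxin) at 10 mg/kg into the peritoneum, and brain, lung and heart were taken 6, 24, 48, 72 or 168 hr later. The 0 hr mice were controls without LPS, injected with PBS per the study's methods. Runs of one library were summed, and 80 of 98 libraries with at least 3% of their reads on genes were kept. In time order these were 5, 5, 4, 6, 4 and 4 brain libraries, 4, 4, 2, 6, 4 and 4 lung libraries and 5, 5, 4, 6, 4 and 4 heart libraries. The labels do not tie libraries to mice, so p-values measure the spread between these libraries.

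Before the results, libraries that stood apart are named. Kept libraries held 284457 to 43417945 counts on genes. Lung 6 hr replicates 1, 2 and 4 held 2678119, 2745503 and 284457 counts, with 6.93%, 8.12% and 3.405% of reads on genes. Lung 6 hr replicate 3 held 40128330 counts, with 33.9% on genes. In heart at 6 hr the share was 43.7% to 67.7%. File names fell into 4 library series, used here in place of the sequencing batch, which is not labelled. All 18 libraries left out were the whole of series 3, and series 4 had no library at 0 or 6 hr. Levels are given as CPM, counts per 1000000 counts on genes after TMM scaling of the library sizes over all kept libraries, which multiplied the raw values by 0.689 to 8.22, most of all in the shallowest library. At 6 hr each tissue had 1 library of series 1, and these held less Lcn2, the secreted acute-phase protein lipocalin 2, than the others. The library labelled brain 6 hr replicate 6 held 289 CPM of Lcn2, against 4844 to 8542 in the other 4 and 5.41 to 37.2 at 0 hr. The library labelled heart 6 hr replicate 5 held 46.7, against 3062 to 6792 in the other 4 and 7.51 to 19.7 at 0 hr. The library labelled lung 6 hr replicate 4 was the shallowest of all at 284457 counts, where 3 counts amount to 86.7 CPM, and its 5 counts of Lcn2 amount to 144 CPM, against 728 to 2500 in the other 3 and 7.86 to 73.9 at 0 hr. The library labelled heart 72 hr replicate 1 held 12.3, within the 0 hr range, against 581 to 3749 in the other 3. Changes of the 10 genes at 6 hr are therefore given with and without the series 1 library. Lcn2 itself rose after LPS, so leaving out libraries low in it favours larger changes and is not an independent test. RNA of cells other than endothelium was present in every tissue. At 0 hr, 6 neuron markers summed to 1108 to 4461 CPM in brain beside 1781 to 3643 CPM for 10 endothelial markers. In brain 5 astrocyte markers summed to 637 to 4699 CPM and 6 mural and fibroblast markers to 1121 to 2556 CPM. In lung 6 alveolar epithelial markers summed to 2064 to 9918 CPM beside 12380 to 16880 for the endothelial markers. In heart 6 cardiomyocyte markers summed to 2758 to 5582 CPM beside 9534 to 10600.

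In resting cells NF-kappaB dimers are held in the cytoplasm by inhibitors of the IkB family. A stimulus such as LPS activates the IKK kinase complex, the IkB proteins are degraded, and the freed dimers enter the nucleus and switch on inflammatory genes, several of their own inhibitors among them, which then end the response. In endothelium this pathway is known for putting leukocyte adhesion molecules and chemokines on the vessel wall.

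The promoter sequences are shown because the feedback inhibitors are known NF-kappaB target genes. RefSeq promoter windows (GRCm38.p6, 250 bases before the start site) were given for 7 of the 10 genes, in 10 windows. The NF-kappaB 10-base consensus, searched on both strands, was found in 7 of these 10 windows, belonging to Nfkb2, Nfkbia, Nfkbie, Tnfaip3 and Tnip1, while 7.251% of 32851 windows of all genes hold it. Matches can overlap, as they do in Nfkb2 and Tnip1. A match of these letters is a description and not a binding site. One match per gene is printed 5′ to 3′ on the gene's strand with the match in capitals, and for Nfkbia the whole window, because it is the classical feedback inhibitor whose levels are given next. The Nfkbia match is on the strand opposite to the gene:
Nfkb2, chr19:46304688-46304717, plus strand: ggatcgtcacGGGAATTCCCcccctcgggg
Nfkbie, chr17:45555584-45555613, plus strand: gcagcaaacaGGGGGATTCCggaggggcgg
Tnfaip3, chr10:19015516-19015545, minus strand: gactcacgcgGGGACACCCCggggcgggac
Tnip1, chr11:54962979-54963008, minus strand: ctccatcatgGGGGAATTCCcctcctgcct
Nfkbia, chr12:55492648-55492897, minus strand: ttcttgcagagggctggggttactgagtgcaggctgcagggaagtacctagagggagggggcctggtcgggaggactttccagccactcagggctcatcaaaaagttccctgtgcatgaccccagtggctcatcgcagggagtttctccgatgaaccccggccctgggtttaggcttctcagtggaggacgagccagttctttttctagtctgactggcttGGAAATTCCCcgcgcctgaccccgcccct
The windows of Rela and Bcl3 held no match, and those of Nfkb1, Relb and Nfkbiz were not analysed here.

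Before LPS, Nfkbia was the most abundant of the 10 mRNAs in all tissues and Rela the next, on the scale of CPM per kb of exon, which allows genes of different length to be compared. Nfkbia encodes IkB alpha, the main cytoplasmic inhibitor of NF-kappaB, and Rela the subunit of the classical dimer that carries the activation domain. In heart the median (lowest to highest library, n = 5) was 167 (136 to 241) for Nfkbia, 41.7 (38.8 to 44.8) for Rela and 16.3 (13.3 to 21.6) for Tnip1, and these ranges did not overlap. Nfkb1 at 10.2 (8.92 to 12.2), Nfkb2 at 10.2 (8.99 to 13.9) and Relb at 8.07 (7.19 to 10.2) followed with overlapping ranges. Nfkbiz was lowest in heart at 0.659 (0.550 to 0.733). In brain (n = 5) the order ran from Nfkbia at 134 (82.3 to 252) and Rela at 12.4 (11.5 to 22.8) down to Tnfaip3 at 0.578 (0.451 to 0.878). In lung (n = 4) Nfkbia stood at 1515 (806 to 2969) and Rela at 57.2 (43.4 to 86.8), and Nfkbiz was lowest at 1.08 (0.937 to 1.73). Below Rela, the ranges of neighbouring genes overlapped in lung.

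**Figure D1:**
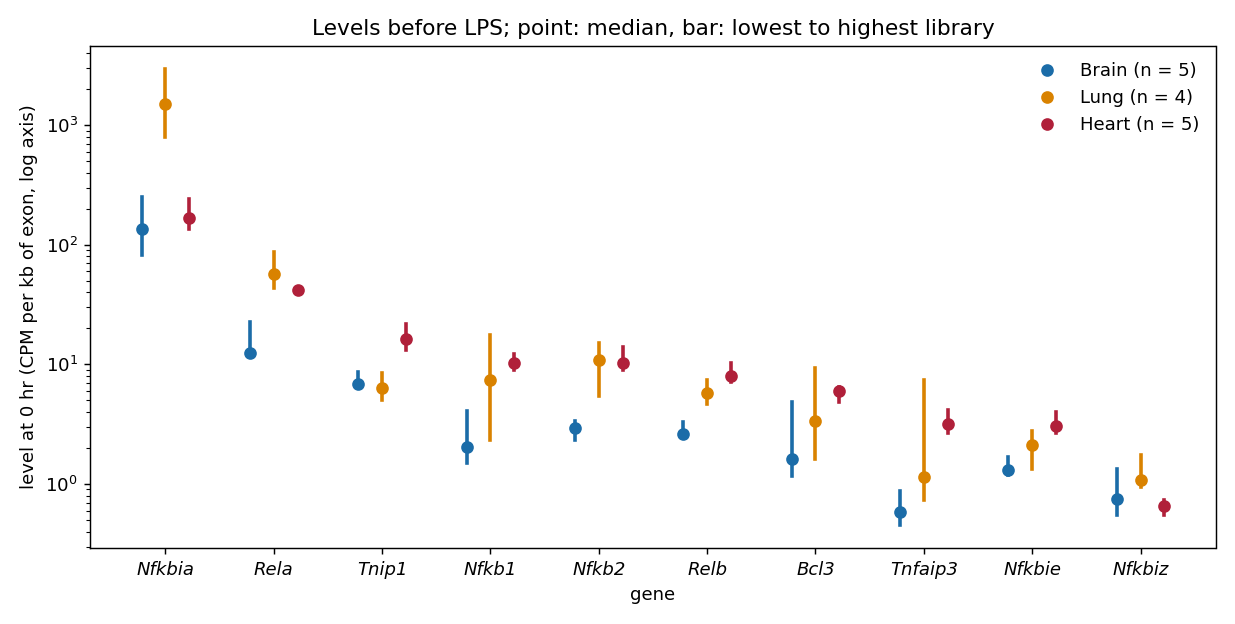
Level of each of the 10 genes at 0 hr in CPM per kb of exon (log axis), with the median as a point and the lowest to highest library as a bar, for brain (n = 5), lung (n = 4) and heart (n = 5). Nfkbia in lung, at a median of 1515, stands above its levels in brain (134) and heart (167), while most other genes are lowest in brain.

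The clearest difference between tissues before LPS was Nfkbia in lung. Its level was 2141, 4780, 2738 and 1297 CPM in the 4 lung libraries at 0 hr, 406, 297, 216, 208 and 132 CPM in the 5 brain libraries and 387, 268, 362, 268 and 220 CPM in the 5 heart libraries. Every lung library lay above every brain and heart library. On the log2 scale, differences being given ± SE throughout, lung exceeded heart by 3.23 ± 0.55 (adjusted p = 1.6e-06), and brain minus lung was -3.53 ± 0.56 (adjusted p = 2.1e-07). Both calls were kept under every alternative run. Brain and heart differed in Nfkbia by -0.30 ± 0.49 (adjusted p = 0.66). Across the 10 genes, 6 were lower in brain than in lung, where 21.2% of all genes were called lower, and 7 were lower in brain than in heart, against 15.3% of all genes. Between lung and heart, Nfkbia was called higher in lung and Tnip1 lower, at -1.36 ± 0.54 (adjusted p = 0.032), where 49.2% of all genes were called in either direction. The brain minus heart differences of the subunit genes were -1.99 ± 0.48 (adjusted p = 0.00036) for Nfkb1, -1.89 ± 0.47 (adjusted p = 0.00056) for Nfkb2 and -1.50 ± 0.37 (adjusted p = 0.00055) for Rela. Rela measured 57.8, 70.1, 36.1, 38.1 and 35.5 CPM in the brain libraries and 128, 138, 128, 119 and 126 CPM in the heart libraries, which do not overlap. Endothelial markers were lower in brain libraries as well, as given above, and their part in these differences was not tested. In a ribosome pull-down from whole tissue, fewer endothelial cells and less RNA per cell cannot be told apart. With the series effect fitted separately in each tissue, the brain minus heart calls of Rela, Nfkbie, Bcl3 and Tnfaip3, the brain minus lung call of Nfkb1 and the lung minus heart call of Tnip1 were lost, and lung minus heart calls of Nfkb1 (log2 difference -1.48, adjusted p = 0.002) and Rela (1.13, adjusted p = 0.035) appeared. Relb and Tnfaip3 between brain and lung, and Nfkbie and Bcl3 between brain and heart, also lost their calls with DESeq2's scaling or limma-voom.

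The 6 hr samples are the earliest after LPS. In brain all 10 genes rose (4.21% of all genes tested did), in heart 9 of 10 rose (22.4% of all genes) and in lung 4 of 10 rose (2.56% of all genes), and none of the 10 fell in any tissue. Their median log2 changes were 3.28 in heart, 2.61 in brain and 2.39 in lung, against -0.05, 0.00 and -0.42 over all genes tested, so that a change in lung is to be read against that shift. Without the series 1 library at 6 hr, an alternative chosen after the data were seen, 10 of 10 rose in brain, 10 of 10 in heart and 5 of 10 in lung, where 14.3%, 58.4% and 3.95% of all genes were called in either direction. Within library series 2 alone, the 10 genes had a median difference of 3.60 in heart, 2.68 in brain and 2.45 in lung, and the single 6 hr library of series 1 gave -0.37 in heart and -0.32 in brain. In lung that library had 0 counts of 7 of the 10 genes, so its median is not given. The 0 hr libraries are shared by all later comparisons of a tissue.

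**Figure D2:**
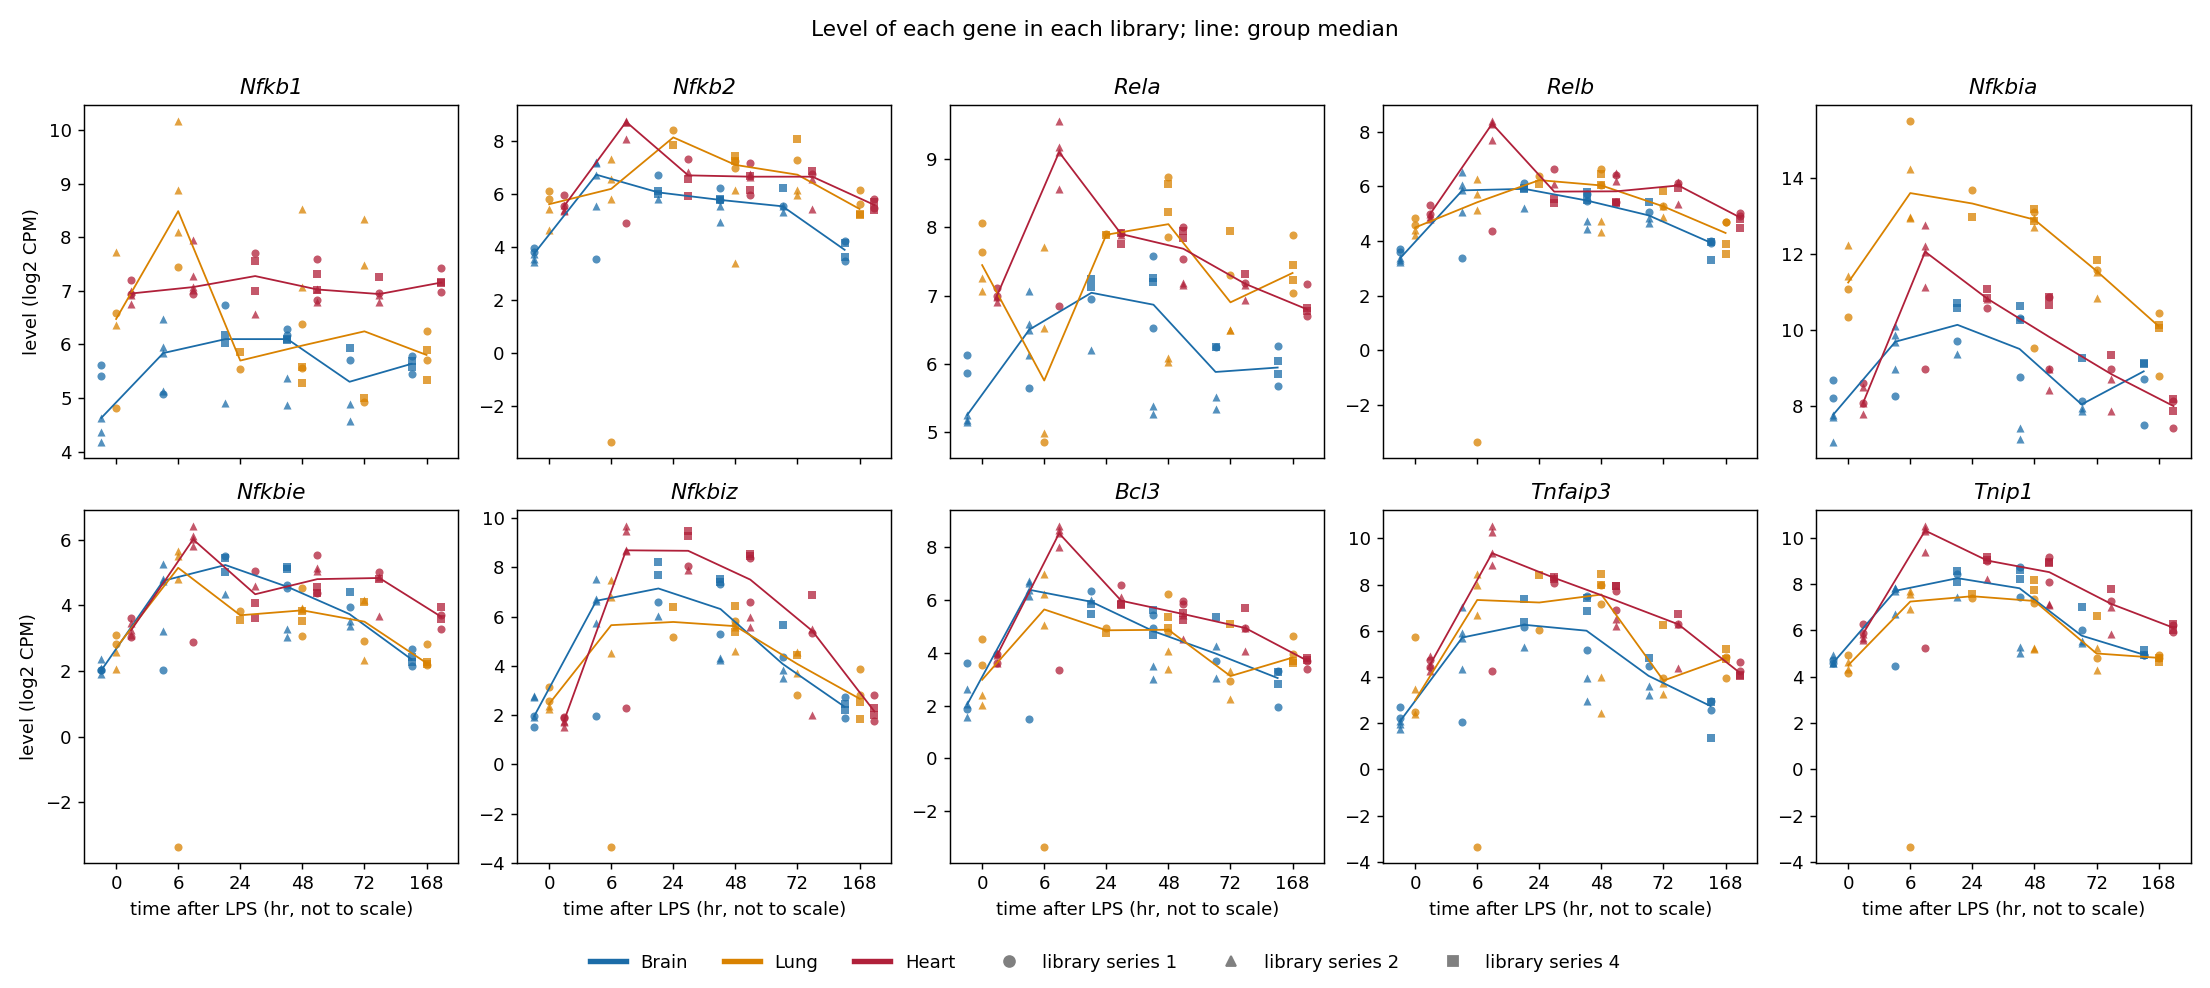
Level (log2 CPM) of each of the 10 genes in each kept library at 0, 6, 24, 48, 72 and 168 hr (axis not to scale) in brain, lung and heart, with marker shapes for the library series and a line through the group medians. In 9 genes the heart 6 hr libraries of series 2 stand above all 0 hr heart libraries while the series 1 circle at 6 hr stays near them, and the circles near -3 are the lung 6 hr library in which 7 of the genes had 0 counts.

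Values at 6 hr are listed in replicate order, so that the last value is the series 1 library (replicate 6 in brain, 4 in lung and 5 in heart). Among the subunit genes, Nfkb2, whose product is processed to the DNA-binding partner of RelB in the non-canonical pathway, measured 63.6, 46.6, 48.2, 41.2 and 42.3 CPM in heart at 0 hr and 440, 427, 431, 270 and 30.5 CPM at 6 hr. All but the last 6 hr library lay above every control library. In brain Nfkb2 measured 15.4, 14.1, 11.6, 13.4 and 10.8 CPM at 0 hr and 145, 149, 107, 47.1 and 11.6 CPM at 6 hr, with the same pattern. The log2 change was 2.73 ± 0.46 (adjusted p = 0.00014) in heart and 2.85 ± 0.44 (adjusted p = 0.00029) in brain. Lung Nfkb2 measured 69.3, 43.4, 25.2 and 55.8 CPM and then 95.6, 56.8, 160 and 0 CPM, so the groups overlapped, and its change of 1.28 ± 0.66 (adjusted p = 0.24) was not called. Without the series 1 libraries the changes were 3.17 ± 0.29 (adjusted p = 2.7e-09) in heart, 3.28 ± 0.28 (adjusted p = 1.2e-08) in brain and 1.76 ± 0.58 (adjusted p = 0.083) in lung. Nfkb2 overlaps genes on the opposite strand by 830 bases, and whether counting used strand is not stated, so reads there cannot be assigned.

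Relb, the subunit that pairs with the processed Nfkb2 product, moved with Nfkb2. Its level in heart was 39.7, 31.4, 28.9, 27.9 and 31.5 CPM at 0 hr and 315, 313, 339, 205 and 20.7 CPM at 6 hr. In brain it was 12.1, 12.8, 9.80, 10.2 and 9.37 CPM and 66.0, 90.8, 57.8, 33.2 and 10.2 CPM. Again all 6 hr libraries but the last of each tissue lay above every control. Relb rose by 2.83 ± 0.44 (adjusted p = 6e-05) in heart and 2.36 ± 0.38 (adjusted p = 0.00037) in brain. In lung, where it went from 28.7, 20.8, 18.2 and 23.9 CPM to 52.0, 34.9, 77.7 and 0 CPM, the change of 1.26 ± 0.59 (adjusted p = 0.2) was not called. Relb, with series 1 left out, changed by 3.28 ± 0.24 (adjusted p = 1.8e-10) in heart, 2.77 ± 0.23 (adjusted p = 1e-08) in brain and 1.62 ± 0.54 (adjusted p = 0.083) in lung.

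Rela rose in heart and brain but was not called in lung. In heart it measured 128, 138, 128, 119 and 126 CPM at 0 hr and 756, 580, 547, 378 and 116 CPM at 6 hr. In brain the values were 57.8, 70.1, 36.1, 38.1 and 35.5 CPM and 95.9, 134, 90.7, 70.0 and 49.9 CPM, and only 3 of the 5 brain libraries at 6 hr lay above all controls. Rela rose by 1.90 ± 0.31 (adjusted p = 8.4e-05) in heart and 1.18 ± 0.30 (adjusted p = 0.015) in brain. The brain call was lost without 6 hr replicate 2, with limma-voom and without the series covariate. Lung Rela measured 199, 133, 153 and 267 CPM at 0 hr and 31.7, 91.7, 209 and 28.9 CPM at 6 hr. No lung library at 6 hr lay above all controls, and the change was -0.58 ± 0.62 (adjusted p = 0.6). The changes without series 1 were 2.27 ± 0.19 (adjusted p = 7.8e-10) in heart, 1.51 ± 0.24 (adjusted p = 5.5e-05) in brain and -0.16 ± 0.58 (adjusted p = 0.91) in lung.

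Nfkb1, which encodes the precursor of the subunit that pairs with RelA, changed least in heart. It measured 147, 123, 127, 121 and 108 CPM there at 0 hr and 155, 246, 129, 135 and 122 CPM at 6 hr, a change of 0.41 ± 0.21 (adjusted p = 0.11) with overlapping groups. Without the series 1 library this became 0.57 ± 0.21 (adjusted p = 0.021). In brain it measured 42.7, 48.7, 20.4, 18.2 and 24.8 CPM and 62.3, 89.1, 57.2, 34.9 and 33.5 CPM, and rose by 1.20 ± 0.28 (adjusted p = 0.0086). The brain controls differed by series, the first 2 libraries (series 1) being above the other 3, and the call was lost when the series covariate was left out. Lung values were widely spread at 28.1, 213, 82.7 and 95.9 CPM and 1153, 472, 272 and 173 CPM, and the change of 1.42 ± 0.59 (adjusted p = 0.15) was not called. Brain and lung gave 1.53 ± 0.21 (adjusted p = 1.1e-05) and 1.40 ± 0.63 (adjusted p = 0.2) without series 1.

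The classical inhibitor Nfkbia rose in heart from 387, 268, 362, 268 and 220 CPM to 6925, 4253, 4671, 2217 and 494 CPM, and all 5 libraries at 6 hr exceeded all controls, the last by the least. In brain, after 406, 297, 216, 208 and 132 CPM at 0 hr, it measured 938, 1098, 822, 500 and 303 CPM at 6 hr. The log2 change was 3.74 ± 0.54 (adjusted p = 2.8e-05) in heart and 1.84 ± 0.44 (adjusted p = 0.0094) in brain, the latter lost when the series covariate was left out. In lung the controls already held 2141, 4780, 2738 and 1297 CPM, and the 6 hr libraries held 8044, 19060, 7906 and 46290 CPM. The lung groups did not overlap, but the change of 2.51 ± 0.79 (adjusted p = 0.058) missed the threshold. The last lung value came from the shallow series 1 library, where Nfkbia took 1602 of 284457 counts before the scaling by 8.22 and 7 of the other 9 genes had none. Without series 1 the changes were 4.16 ± 0.40 (adjusted p = 8.4e-09) in heart, 2.22 ± 0.38 (adjusted p = 0.00016) in brain and 1.68 ± 0.71 (adjusted p = 0.17) in lung.

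Nfkbie, which encodes IkB epsilon, another cytoplasmic inhibitor, was among the rarer mRNAs. In heart it measured 12.3, 8.17, 8.40, 11.0 and 9.38 CPM at 0 hr and 64.4, 69.6, 85.8, 56.3 and 7.33 CPM at 6 hr, and in brain 3.95, 3.95, 4.14, 5.09 and 3.65 CPM and 27.6, 38.4, 26.9, 9.28 and 4.01 CPM. It rose by 2.47 ± 0.43 (adjusted p = 0.00016) in heart and 2.44 ± 0.44 (adjusted p = 0.001) in brain, and in both tissues only the last library did not exceed every control. In lung 8.41, 5.86, 4.05 and 7.04 CPM at 0 hr was followed by 50.8, 45.1, 27.5 and 0 CPM, a change of 2.28 ± 0.70 (adjusted p = 0.053) that became 2.59 ± 0.68 (adjusted p = 0.029) without the last library. Heart and brain gave 2.89 ± 0.29 (adjusted p = 1.6e-08) and 2.83 ± 0.33 (adjusted p = 8.5e-07) without it. The lung call was also gained by leaving out 6 hr replicate 3, 48 hr replicate 2 or 72 hr replicate 1.

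Nfkbiz had the largest change of the 10 in heart and brain. It encodes IkB zeta, a nuclear member of the family that acts as a cofactor for secondary response genes. In heart it measured 3.68, 3.59, 3.16, 2.76 and 3.31 CPM at 0 hr and 703, 821, 414, 408 and 4.78 CPM at 6 hr, and all 5 exceeded every control, the last by the least. In brain the values were 2.78, 3.79, 6.72, 3.65 and 6.55 CPM and 99.6, 183, 104, 53.8 and 3.85 CPM. Lung Nfkbiz measured 8.70, 5.01, 4.70 and 5.79 CPM and 22.7, 179, 111 and 0 CPM. It rose by 7.38 ± 0.94 (adjusted p = 1.2e-05) in heart, 4.30 ± 0.70 (adjusted p = 0.00041) in brain and 3.66 ± 0.77 (adjusted p = 0.0062) in lung, and none of these calls was lost under any alternative. Leaving out the series 1 libraries gave 7.85 ± 0.60 (adjusted p = 2.5e-10), 4.73 ± 0.51 (adjusted p = 3.5e-07) and 4.08 ± 0.73 (adjusted p = 0.0022).

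Bcl3, a nuclear IkB-like protein that binds NF-kappaB homodimers on DNA, went in heart from 12.0, 15.3, 12.1, 15.9 and 15.0 CPM to 402, 448, 370, 257 and 10.1 CPM. In brain it went from 3.59, 12.1, 4.03, 6.07 and 2.90 CPM to 107, 99.1, 83.7, 70.8 and 2.70 CPM. All 6 hr libraries but the last of each tissue were above every control. Bcl3 rose by 4.42 ± 0.58 (adjusted p = 1.4e-05) in heart and 3.88 ± 0.68 (adjusted p = 0.00073) in brain. In lung, with 11.6, 5.20, 3.99 and 23.2 CPM at 0 hr and 127, 74.2, 33.4 and 0 CPM at 6 hr, it rose by 3.22 ± 0.73 (adjusted p = 0.011). The lung call was lost without 0 hr replicate 3, and also when the series covariate was left out. Leaving out series 1 gave 4.87 ± 0.29 (adjusted p = 1.3e-11) in heart, 4.37 ± 0.45 (adjusted p = 1.9e-07) in brain and 3.75 ± 0.67 (adjusted p = 0.0021) in lung. Bcl3 overlaps a gene on the opposite strand by 161 bases.

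Tnfaip3 encodes A20, a ubiquitin-editing enzyme that shuts off signalling upstream of IKK. In heart it measured 21.6, 26.6, 22.9, 30.0 and 19.4 CPM at 0 hr and 1489, 1226, 655, 456 and 19.3 CPM at 6 hr. In brain it measured 4.58, 6.34, 3.26, 4.18 and 3.76 CPM and 52.3, 131, 59.4, 20.4 and 4.01 CPM. The first 4 libraries at 6 hr were above all controls in both tissues, and the log2 change was 5.03 ± 0.69 (adjusted p = 2e-05) in heart and 4.01 ± 0.75 (adjusted p = 0.0014) in brain. In lung, where the controls held 5.51, 5.27, 11.2 and 53.5 CPM and the 6 hr libraries 253, 351, 103 and 0 CPM, it rose by 4.16 ± 0.90 (adjusted p = 0.008). The brain call was lost with limma-voom and the lung call when the series covariate was left out. Tnfaip3 changed by 5.50 ± 0.42 (adjusted p = 2.2e-10) in heart, 4.47 ± 0.59 (adjusted p = 5.8e-06) in brain and 4.79 ± 0.79 (adjusted p = 0.0012) in lung without series 1.

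Tnip1 encodes ABIN-1, the adaptor that brings A20 to its targets, and it moved as Tnfaip3 did. Heart libraries held 76.4, 58.7, 57.8, 50.7 and 47.2 CPM at 0 hr and 1260, 1315, 1449, 667 and 37.9 CPM at 6 hr. Brain libraries held 26.2, 24.1, 24.2, 30.4 and 24.2 CPM and 207, 227, 225, 106 and 21.7 CPM. Lung libraries held 17.7, 24.8, 20.0 and 29.9 CPM and 120, 189, 208 and 0 CPM. In each tissue all 6 hr libraries except the last stood above every control. Tnip1 rose by 4.25 ± 0.60 (adjusted p = 2.4e-05) in heart, 2.79 ± 0.55 (adjusted p = 0.0023) in brain and 2.66 ± 0.66 (adjusted p = 0.018) in lung, and the lung call was lost without 0 hr replicate 3 and with all 98 libraries. The 3 changes were 4.71 ± 0.30 (adjusted p = 2.1e-11), 3.20 ± 0.42 (adjusted p = 5.1e-06) and 3.14 ± 0.56 (adjusted p = 0.0021) when series 1 was left out.

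**Figure D3:**
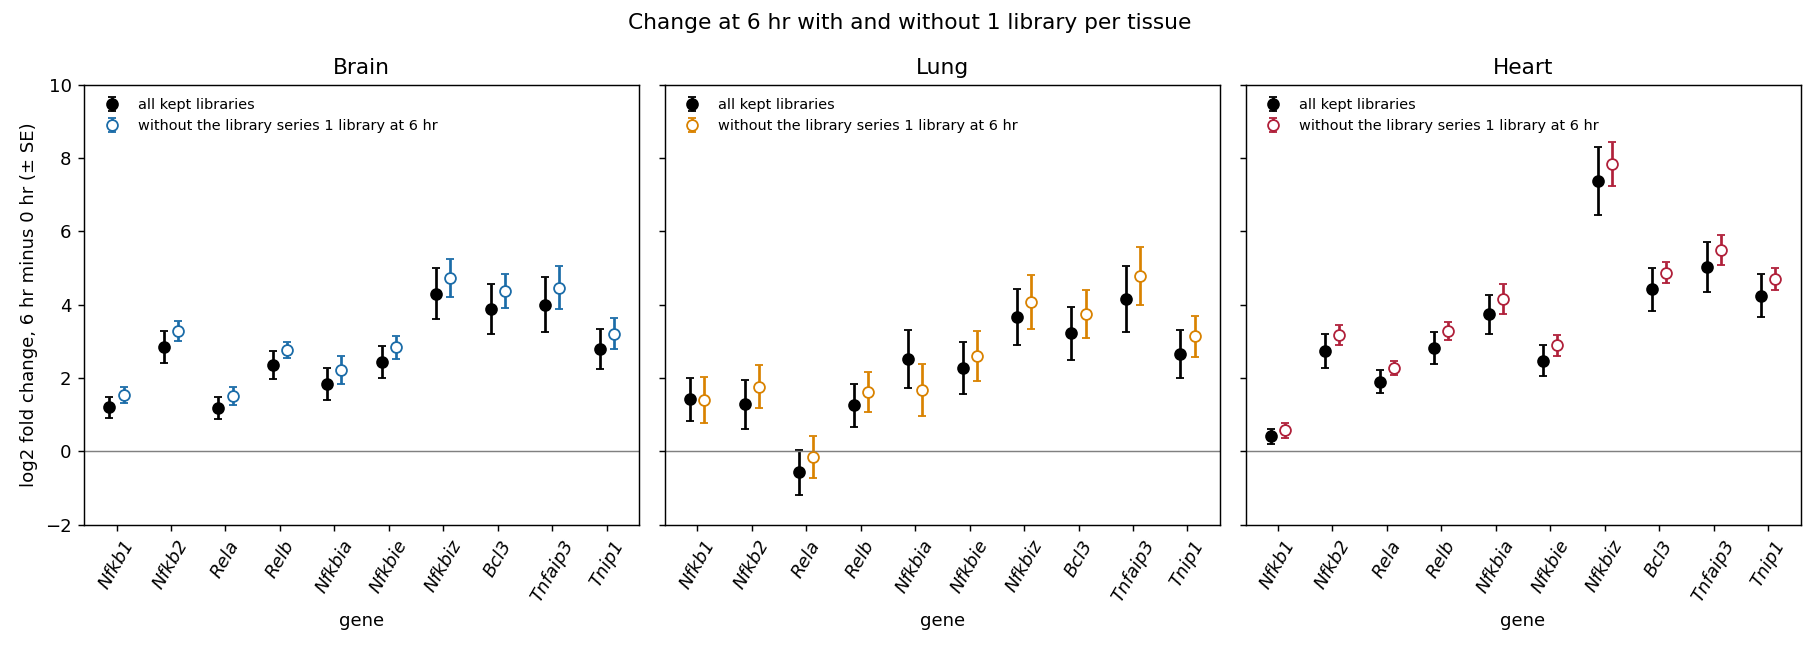
Log2 fold change (6 hr minus 0 hr, ± SE from the edgeR fit) of the 10 genes in brain, lung and heart, with all kept libraries (black) and without the 1 library of series 1 at 6 hr (open). In brain and heart every open point lies above its black point and has a smaller error, and Nfkbiz in heart is the largest change at 7.38 and 7.85.

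Markers of other cells moved at the same time. The summed CPM of 10 neutrophil markers had a median of 117 (44.1 to 212) in lung at 0 hr and 2699 (0 to 3940) at 6 hr, and 6 of the 10 rose, while Ly6g had a median under 1 CPM at both times. In heart the sum went from 1.49 (1.08 to 1.88) to 42.4 (1.15 to 61.6) CPM, and 6 of the 8 tested rose, with Csf3r, Cxcr2, Ly6g, Camp, Mmp8 and Mmp9 at medians under 1 CPM at 6 hr. In brain it went from 27.1 (5.30 to 52.5) to 47.4 (7.48 to 400.0) CPM, and 1 of the 9 tested rose. The summed level of 10 endothelial markers went in heart from a median of 9734 to 5314 CPM, with 8 of 10 called lower, in brain from 2430 to 1567 CPM, with 5 called lower and 1 higher, and in lung from 14120 to 3930 CPM, with 2 called lower. Of the macrophage and monocyte markers, none of 10 was called in brain, 2 rose in lung, and 2 rose and 1 fell in heart. No neuron, astrocyte or microglia marker was called in brain, no alveolar epithelial or lymphocyte marker in lung, and 1 of 6 cardiomyocyte markers rose in heart. Markers of other organs also moved in lung. The 6 cardiomyocyte markers there summed to a median of 95.3 (63.5 to 153) CPM at 0 hr and 638 (116 to 1501) at 6 hr. The sum of 5 astrocyte markers in lung went from 8.30 (3.91 to 14.0) to 175 (4.49 to 404.5) CPM. With those libraries of series 1 left out, 3 neutrophil markers rose in brain, 7 in lung and 7 in heart, endothelial markers were called lower in 5, 1 and 8 cases and higher in 2 in brain, 3 of 6 microglia and 2 of 4 lymphocyte markers fell in brain, and 2 cardiomyocyte markers rose in heart. In lung 1 of 6 cardiomyocyte and 1 of 5 astrocyte markers then rose and 1 of 6 neuron markers fell. The part of these cells in the changes of the 10 genes was not tested.

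At 24 hr, 8 of 10 were called higher in brain (6.52% of all genes), 6 of 10 in heart (9.07%) and none in lung (0.363%), where only 2 libraries remained and 3 of the 10 had an unadjusted p under the same threshold. Of all 17058 genes tested in lung, 1022 had such an unadjusted p. DESeq2 called 2 of the 10 in lung at 24 hr, Nfkbiz and Tnip1. Every library at 24 hr exceeded every control for 9 of 10 genes in brain (10.2% of all genes did), 8 of 10 in lung (12.5%) and 7 of 10 in heart (18.6%). Without the series 1 libraries at 6 hr, 10 were called in brain (13.4% of all genes in either direction) and 9 in heart (26.0%) at 24 hr. In heart, leaving out either 6 hr replicate 5 or 72 hr replicate 1 added the 24 hr calls of Nfkb2 and Relb. Neutrophil markers in lung summed to 1468 to 2694 CPM at 24 hr against 44.1 to 212 at 0 hr. The median sum of 6 mural and fibroblast markers was 3979 against 1417 CPM in brain, 772 against 356.5 in heart and 227 against 268 in lung. In brain the macrophage and monocyte median was 79.2 against 163 CPM. The part of these cells in the changes of the 10 genes was not tested.

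Nfkbiz had the largest change of the 10 at 24 hr in each tissue. It measured 266, 240, 621 and 707 CPM in the 4 heart libraries, 97.8, 64.3, 204 and 298 CPM in brain and 36.4 and 82.5 CPM in lung. All of these were above every control library. The changes from 0 hr were 6.26 ± 0.91 (adjusted p = 0.00059) in heart, 4.12 ± 0.74 (adjusted p = 0.0012) in brain and 3.19 ± 0.82 (adjusted p = 0.099) in lung. Tnfaip3 at 24 hr held 267, 322, 325 and 305 CPM in heart and 70.7, 38.7, 82.6 and 164 CPM in brain, again without overlap with the controls, and its changes were 3.44 ± 0.65 (adjusted p = 0.0021) and 3.55 ± 0.77 (adjusted p = 0.0048). Tnip1 held 503, 299, 526 and 579 CPM and 342, 172, 269 and 373 CPM, with changes of 2.62 ± 0.58 (adjusted p = 0.0057) and 2.91 ± 0.59 (adjusted p = 0.0028). Nfkbia was called in both tissues, at 2.25 ± 0.52 (adjusted p = 0.0078) in heart, where the call was lost without 24 hr replicate 2, and 1.44 ± 0.45 (adjusted p = 0.041) in brain, where leaving out any of 10 of the 28 libraries ended it.

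**Figure D4:**
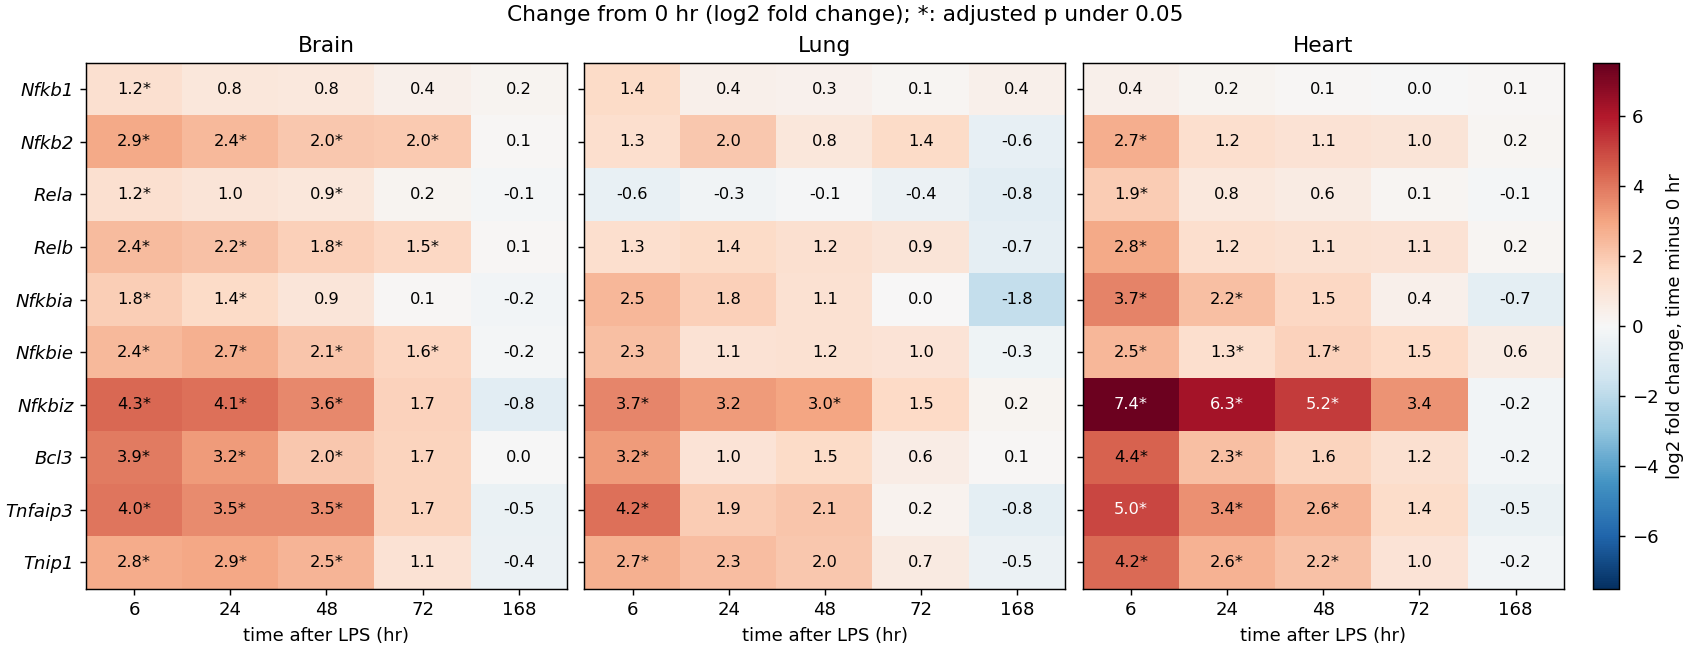
Log2 fold change from 0 hr of the 10 genes (rows) at 6, 24, 48, 72 and 168 hr (columns) in brain, lung and heart from the edgeR fit of each tissue, with an asterisk where the adjusted p is under 0.05. Brain keeps 8 asterisks at 24 and 48 hr and 3 at 72 hr, heart falls from 9 at 6 hr to 4 at 48 hr and none at 72 hr, and no tissue has one at 168 hr. Counts of asterisks do not compare tissues: no gene was called for a difference in response between brain and heart at 24 or 48 hr. More heart genes were called at 24, 48 and 72 hr without the series 1 library at 6 hr.

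At 48 hr, 8 of 10 genes were called higher in brain (8.11% of all genes), 4 in heart (3.08%) and 1 in lung (0.428%). The heart calls were Nfkbie, Nfkbiz, Tnfaip3 and Tnip1, and the lung call was Nfkbiz. In heart every 48 hr library exceeded every control for 8 of the 10 genes, against 4.04% of all genes. The lowest, median and highest Nfkbiz levels at 48 hr were 47.0, 216 and 374 CPM in heart, 18.9, 99.3 and 186 CPM in brain and 24.3, 48.8 and 85.1 CPM in lung, all above their controls. Its changes were 5.25 ± 0.85 (adjusted p = 0.00098), 3.59 ± 0.71 (adjusted p = 0.0024) and 2.99 ± 0.68 (adjusted p = 0.031) in that order, and the lung call was lost when any of 7 of the 24 libraries was left out. In brain Rela was called at 0.87 ± 0.30 (adjusted p = 0.048), which was lost when any of 19 of the 28 libraries was left out, and Bcl3 at 2.02 ± 0.61 (adjusted p = 0.029), which was lost when any of 5 was. In heart the calls were lost for Tnfaip3 and Tnip1 without 0 hr replicate 1 or 2, that of Tnip1 also without 48 hr replicate 3. Without the library labelled heart 6 hr replicate 5, 9 of 10 were called in heart at 48 hr (8.16% of all genes in either direction). With limma-voom 1 of 10 was called in heart and with the replicate block 1, and in lung the block gave none. At 48 hr 8 of 10 macrophage and monocyte markers and 6 of 9 neutrophil markers rose in brain, 4 of 10 and 7 of 8 in heart and 1 of 10 and 6 of 10 in lung, while Ccr2 stayed at a median under 1 CPM in brain and heart. Their part in the changes of the 10 genes was not tested.

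The 48 hr libraries differed by library series. In brain, Tnip1 measured 38.8, 32.6, 418, 173, 292 and 387 CPM in replicates 1, 2, 3, 4, 6 and 7, of which the first 2 were series 2, the next 2 series 1 and the last 2 series 4. The first 2 stood near the controls, at 24.1 to 30.4 CPM, and the other 4 well above. Nfkbia in brain followed the same split with 171, 139, 1257, 428, 1210 and 1570 CPM, and in heart with 495, 337, 1862, 501, 1597 and 1874 CPM, where series 1 replicate 4 joined the lower libraries. Within series 2, the 10 genes had a median log2 difference between 48 and 0 hr of 1.34 in heart, 1.11 in brain and 0.74 in lung, and within series 1 of 1.60, 2.28 and 1.32. Series 4 has no 0 hr library, so no difference within it could be computed.

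**Figure D5:**
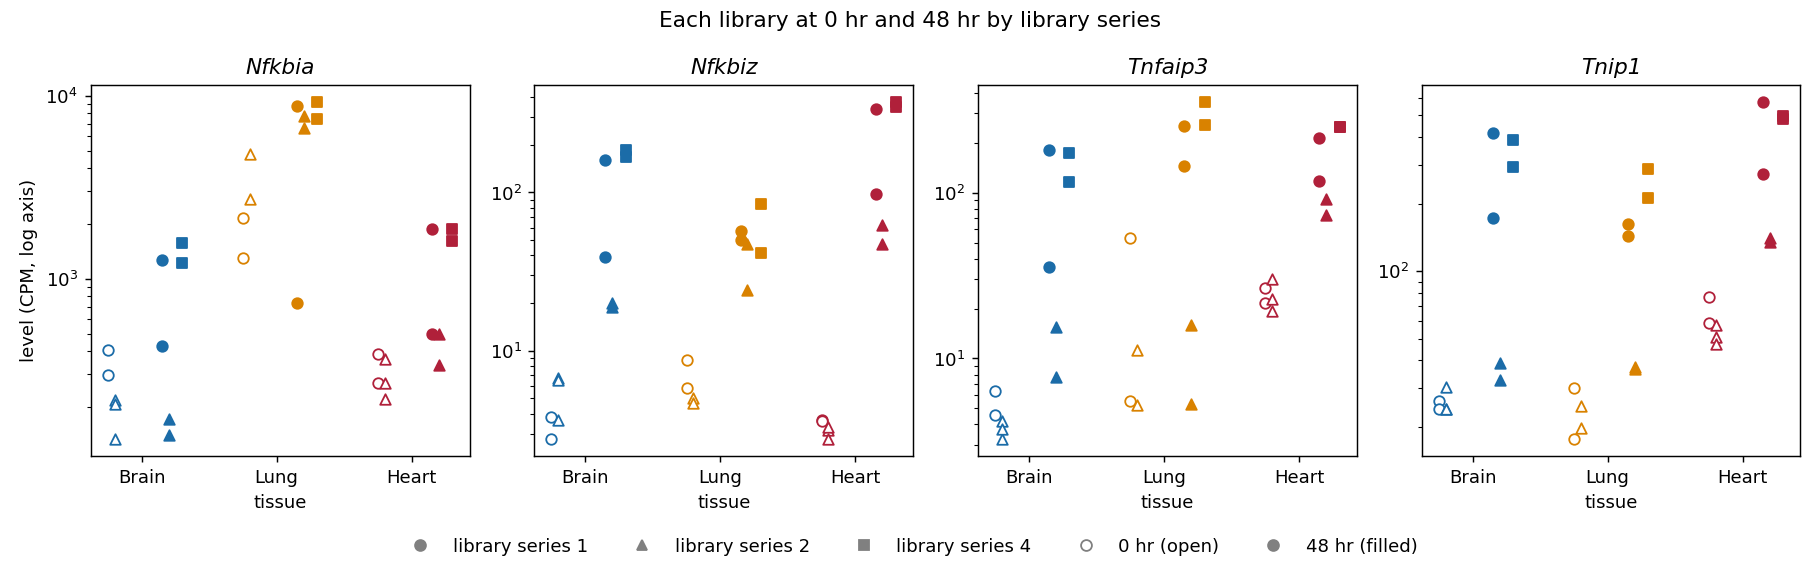
Level (CPM, log axis) of Nfkbia, Nfkbiz, Tnfaip3 and Tnip1 in each library at 0 hr (open) and 48 hr (filled) in brain, lung and heart, with marker shapes for library series 1, 2 and 4. The series 2 libraries at 48 hr (triangles) are the lowest 48 hr libraries of Tnip1 in each tissue, at 32.6 and 38.8 CPM in brain against 173 to 418 CPM in the other series.

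By 72 hr, 3 of 10 genes were still called higher in brain (2.98% of all genes), and none in lung (0.17%) or heart (0.275%), where 2 and 6 of the 10 had an unadjusted p under 0.05. Of all genes tested, 1225 of 17058 in lung and 943 of 16024 in heart had such an unadjusted p. The brain calls were the non-canonical pair Nfkb2 and Relb and the inhibitor Nfkbie. Only Nfkb2 kept its call with limma-voom, and none of the 3 did with the replicate block. Nfkb2 measured 40.3, 46.9, 46.4 and 75.0 CPM at 72 hr in brain, all above its controls, a change of 1.99 ± 0.44 (adjusted p = 0.0078). Relb measured 25.0, 28.3, 32.8 and 43.2 CPM and changed by 1.52 ± 0.38 (adjusted p = 0.019), a call lost without 72 hr replicate 5, and Nfkbie 10.2, 11.4, 15.4 and 21.4 CPM, a change of 1.61 ± 0.44 (adjusted p = 0.042) that was lost when any of 9 of the 28 libraries was left out. Nfkbia measured 243, 231, 280 and 608 CPM in brain at 72 hr, of which only the last exceeded every control, a change of 0.11 ± 0.43 (adjusted p = 0.94). Without the series 1 library at 6 hr, 5 genes were called in brain at 72 hr (4.93% of all genes in either direction). These added Bcl3 at 1.68 (adjusted p = 0.017) and Nfkbiz at 1.63 (adjusted p = 0.046). Without the low-count filter 7 were called (3.33%). DESeq2 called Nfkbie and Nfkbiz in heart at 72 hr. There, leaving out the series 1 library at 6 hr called Nfkbiz (3.30, adjusted p = 0.00096), Nfkbie (1.46, adjusted p = 0.0061), Bcl3 (1.13, adjusted p = 0.025) and Relb (1.09, adjusted p = 0.014). Heart Nfkbiz measured 3.95, 45.0, 40.2 and 116 CPM, the first value being the library labelled 72 hr replicate 1, and its change of 3.35 ± 0.80 (adjusted p = 0.074) became 3.79 ± 0.78 (adjusted p = 0.011) without that library, and Nfkbie was then also called at 1.79 ± 0.43 (adjusted p = 0.027). Of 10 macrophage and monocyte markers, 7 rose in brain at 72 hr, with a summed level of 101 to 492 CPM against 45.7 to 184 at 0 hr and Ccr2 at a median under 1 CPM, and 4 of 8 neutrophil markers rose in heart. Their part in these results was not tested.

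At 168 hr none of the 10 genes was called in any tissue with edgeR, DESeq2 or limma-voom. Over all genes, edgeR called 0.0% in brain and heart and 0.0117% in lung, with 828, 680 and 605 genes at an unadjusted p under 0.05 in brain, heart and lung, and DESeq2 called 2, 2 and 30 genes there. The 10 genes ranged from -0.77 ± 0.79 (adjusted p = 0.91) for Nfkbiz to 0.23 ± 0.31 (adjusted p = 0.93) for Nfkb1 in brain. In lung Nfkbia measured 442, 1384, 1062 and 1117 CPM, a change of -1.78 ± 0.85 (adjusted p = 1), and 1 of the 10 genes had an unadjusted p under 0.05. In heart Nfkbiz measured 6.92, 3.32, 3.88 and 4.84 CPM, close to the 2.76 to 3.68 CPM of its controls, and Tnfaip3 25.0, 19.0, 16.5 and 16.7 CPM against 19.4 to 30.0 CPM.

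Between 6 and 24 hr, 9 of the 10 genes had negative changes of over 1 on the log2 scale in heart, but only Bcl3 was called, at -2.16 ± 0.62 (adjusted p = 0.043), where 4.74% of all genes were called in either direction. That call was lost when any of 22 of the 28 libraries was left out. Without the library labelled heart 6 hr replicate 5, 9 of 10 genes fell, where 30.6% of all genes were called. The falls were then -2.71 ± 0.31 (adjusted p = 1.8e-06) for Bcl3, -2.18 ± 0.32 (adjusted p = 3.6e-05) for Tnip1, -2.09 ± 0.27 (adjusted p = 7.2e-06) for Relb and -1.69 ± 0.56 (adjusted p = 0.024) for Nfkbiz, and Nfkb1 was not called at -0.41 ± 0.24 (adjusted p = 0.2). In brain no gene was called between these times (0.291% of all genes were), and the changes lay between -0.68 ± 0.67 (adjusted p = 0.75) for Bcl3 and 0.24 ± 0.49 (adjusted p = 0.9) for Nfkbie. None was called in lung, where 0.00586% of all genes were and 1 of the 10 had an unadjusted p under 0.05, as did 1156 of all 17058 genes. DESeq2 called 6 of the 30 gene and tissue combinations and limma-voom none. Whether the tissues differ in this step was not tested.

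Differences in response between tissues were tested as interactions over all libraries. At 6 hr, 1 of 10 genes differed between brain and lung (13.3% of all genes), none between brain and heart (0.636%) and 4 between lung and heart (18.1%). The shallow lung 6 hr libraries with a low share of reads on genes, named above, enter each comparison with lung. Their part in these differences was not tested. Rela changed less in lung than in heart, with a lung minus heart difference of -2.67 ± 0.56 (adjusted p = 0.00065), which held under every alternative, and brain minus lung was 1.71 ± 0.56 (adjusted p = 0.031), which was lost with limma-voom, with all 98 libraries and with libraries of at least 1000000 counts. For Nfkbiz the lung minus heart difference was -3.17 ± 1.00 (adjusted p = 0.02), a call lost with limma-voom. The lung minus heart differences of Relb at -1.70 ± 0.62 (adjusted p = 0.043) and Nfkb1 at 2.04 ± 0.70 (adjusted p = 0.032) were both lost when the series effect was fitted in each tissue. Without the series 1 libraries, Nfkbia rose less in brain than in heart (-2.05, adjusted p = 0.046) and so did Nfkbiz (-2.92, adjusted p = 0.0063), whereas all kept libraries gave -2.06 ± 0.70 (adjusted p = 0.19) and -2.98 ± 0.91 (adjusted p = 0.12) for these 2 genes. Calls of Nfkb2 for brain minus lung (1.92, adjusted p = 0.018) and lung minus heart (-1.75, adjusted p = 0.022) and of Nfkbia for lung minus heart (-1.99, adjusted p = 0.038) were also gained, 10 of 30 in all. In that fit 13.7%, 6.36% and 19.7% of all genes were called for brain minus lung, brain minus heart and lung minus heart. At 24 and 48 hr none of the 10 was called in any pair with edgeR, with 7 and 1 of 30 combinations at an unadjusted p under 0.05, and DESeq2 called 1 at 24 hr and none at 48 hr. Of all genes, 3.85%, 0.327% and 1.67% were called at 24 hr for brain minus lung, brain minus heart and lung minus heart, and 3.54%, 0.463% and 1.13% at 48 hr. At an unadjusted p under 0.05 there were, in the same order, 3397, 1530 and 2743 of 22007 genes at 24 hr. At 48 hr there were 3418, 1475 and 2839. The largest difference among the 10 genes at these times was Nfkbiz in lung minus heart at 24 hr, -3.79 ± 1.20 (adjusted p = 0.091).

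Over the 18 tissue and time groups, with each gene's mean in its tissue removed, Tnfaip3 and Tnip1 were each other's most similar gene among 9022 compared (Pearson r = 0.976), and so were Nfkb2 and Relb (r = 0.962). These values describe group means that share libraries, library series and depth. The lung 6 hr means include the shallow series 1 library, where only Nfkbia, Nfkb1 and Rela of the 10 had counts. There the mean log2 CPM (SD) was 4.71 (5.38) for Tnip1 and 13.9 (1.21) for Nfkbia. The part of that library in the likeness of these genes was not tested. Tnip1 was next most like Birc3 (r = 0.971), an inhibitor of apoptosis and ubiquitin ligase, Tnfaip3 like Tmem173 (r = 0.974), which encodes the DNA-sensing adaptor STING, and Nfkb2 like Rhbdf2 (r = 0.934). Relb was next most like Tlr2 (r = 0.953), a receptor for bacterial lipoproteins. Bcl3 was most like Socs3 (r = 0.949), the feedback inhibitor of cytokine receptors, and then Tnfaip3 (r = 0.944). Nfkbie was most like the adhesion molecule Icam1 (r = 0.949) and the LPS co-receptor Cd14 (r = 0.934). Rela was most like Rel (r = 0.957), another member of the REL family, and Brd2 (r = 0.947). Nfkbiz was most like Tmem252 (r = 0.968) and Serpina3f (r = 0.96). Nfkbia did not have its closest match among the other 9 genes but in the metallothioneins Mt1 (r = 0.943) and Mt2 (r = 0.931), its highest value with another of the 10 being 0.781, with Nfkbiz. Nfkb1 was the least like the others, with at most 0.52, with Nfkbia, and was most like Plce1 (r = 0.899) and Naa15 (r = 0.894).

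Around these 10 genes, the pathway was described by 5 lists. At 6 hr, 4.21% of all genes rose and 2.23% fell in brain, 2.56% and 2.27% in lung and 22.4% and 20.3% in heart, and the counts of each list stand beside these shares. Of 11 genes of the IKK complex and its upstream kinases, 2 rose in brain at 6 hr, none in lung, and 4 rose and 1 fell in heart, with list medians (log2) of -0.07, 0.03 and 0.22. Irak2, a kinase that relays Toll-like receptor signals, had the largest called change in brain, at 1.70 ± 0.42 (adjusted p = 0.012), and in heart, at 2.53 ± 0.42 (adjusted p = 0.00011). Of 6 other REL and IkB family members, 2 rose in brain, none in lung and 4 in heart, with medians of 0.55, 1.15 and 1.84. Rel rose by 2.00 ± 0.50 (adjusted p = 0.014) in brain and 2.44 ± 0.41 (adjusted p = 0.00011) in heart, and Nfkbid, another nuclear IkB-like gene, by 3.71 ± 0.58 (adjusted p = 6e-05) in heart. Of 9 genes of the non-canonical pathway, 4 rose in brain, 2 in lung, and 7 rose and 1 fell in heart, with medians of 1.21, 0.48 and 2.67. Cd40, a receptor of that pathway, rose by 2.01 ± 0.43 (adjusted p = 0.0047) in brain, 2.55 ± 0.70 (adjusted p = 0.029) in lung and 4.33 ± 0.56 (adjusted p = 1.4e-05) in heart.

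The other feedback list held 14 ubiquitin-editing and feedback genes, of which 3 rose in brain, 1 in lung, and 8 rose and 1 fell in heart at 6 hr, with medians of 0.33, -0.16 and 0.82. Zc3h12a, which encodes the RNase Regnase-1, rose in all tissues, by 3.74 ± 0.69 (adjusted p = 0.0012) in brain, 3.00 ± 0.83 (adjusted p = 0.031) in lung and 3.51 ± 0.59 (adjusted p = 0.00012) in heart. Tnip3, a relative of Tnip1, rose by 5.21 ± 1.05 (adjusted p = 0.0027) in brain and 2.42 ± 0.67 (adjusted p = 0.0067) in heart. Of 12 NF-kappaB target genes of endothelium, 11 rose in brain, 5 in lung and 12 in heart, with medians of 3.46, 1.91 and 4.18. Cxcl1, a neutrophil chemokine, rose by 10.12 ± 1.48 (adjusted p = 0.0002) in brain, 5.54 ± 1.04 (adjusted p = 0.003) in lung and 8.87 ± 1.08 (adjusted p = 1.1e-05) in heart, and Il6, the acute-phase cytokine, by 9.17 ± 1.51 (adjusted p = 0.00045), 5.96 ± 1.60 (adjusted p = 0.027) and 10.89 ± 1.49 (adjusted p = 2e-05). When series 1 at 6 hr was left out, brain, lung and heart had 7.63%, 2.38% and 27.8% of all genes higher. In that order 2, 0 and 4 of the IKK list rose, 2, 0 and 5 of the REL and IkB list, 6, 3 and 8 of the non-canonical list, 6, 2 and 8 of the feedback list and 12, 7 and 12 of the targets. At 72 hr, 6 of these 12 targets were still called higher in brain, none in lung and 3 in heart, and at 168 hr none was in any tissue.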

How the data were processed

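Messenger RNA on HA-tagged ribosomes of 3 organs (brain, lung, heart) of RiboTagEC mice was sequenced. The authors aligned reads to mm10 with STAR (2.4.2) and counted them per gene with HTSeq-count (0.6.1), and the deposited files hold raw counts for each sequencing run. The annotation release and the strand setting are not given in the sources used here. Counts of 217 runs were summed into 98 libraries, and 18 libraries with under 3% of reads on genes were left out. No library or run was identical to another. Kept libraries had 284457 to 43417945 counts and 3.405 to 70.031% of reads on genes, and precision is lowest in the shallow ones.

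Each tissue was fitted with edgeR 4.0.16 (quasi-likelihood test, TMM scaling, filterByExpr, library series as covariate) in R 4.3.3, with Benjamini-Hochberg adjustment over all genes tested and a threshold of 0.05. Differences between tissues used 1 fit over all kept libraries. SE was derived from the log2 change and its F statistic (change over the root of F). Levels are CPM (counts per 1000000 of the TMM-scaled library size over all kept libraries), with a prior count of 2 on the log2 scale, and CPM per kb of exon where genes are compared. The scripts were tested on simulated data.

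The members are named by rule: all 10 are described, the 3 genes of each pathway list with the largest called change at 6 hr may be named, and the 2 genes most like each member by Pearson correlation of group means. The members and lists were chosen with earlier results of these data known. Alternatives were DESeq2 1.42.0, RLE scaling, no low-count filter, limma-voom (limma 3.58.1), no covariate, a replicate block, all 98 libraries, libraries of at least 1000000 counts and leaving out each library. Leaving out the series 1 libraries at 6 hr, leaving out heart 72 hr replicate 1 and fitting library series in each tissue were added after the data were seen. Promoter sequences are from RefSeq (GRCm38.p6).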

Additional observations from a re-analysis of the deposited data

Results flagged for a closer look

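In 170 groups of 4 to 6 libraries, 19 had 1 library with a large gap to the nearest other for the group's range (Dixon's test at 95%). Chance gives about 1 in 20 independent groups, but the same libraries recur across genes here, so that share is only a guide. Of these 19 flagged groups, 13 came from the 3 series 1 libraries at 6 hr. The library labelled heart 6 hr replicate 5 held 30.5 CPM of Nfkb2 against 270 to 440 in the others, 20.7 of Relb against 205 to 339, 7.33 of Nfkbie against 56.3 to 85.8 and 4.78 of Nfkbiz against 408 to 821. It also held 10.1 CPM of Bcl3 against 257 to 448, 19.3 of Tnfaip3 against 456 to 1489 and 37.9 of Tnip1 against 667 to 1449. The library labelled lung 6 hr replicate 4 held 0 counts of Nfkb2, Relb, Nfkbie, Tnfaip3 and Tnip1, which at its depth allows up to 86.7 CPM. The others held 27.5 to 50.8 CPM of Nfkbie, 34.9 to 77.7 of Relb and 56.8 to 160 of Nfkb2, which reach below that limit, so for these genes a difference was not detectable at this depth. They held 103 to 351 CPM of Tnfaip3 and 120 to 208 of Tnip1. The library labelled brain 6 hr replicate 6 held 2.70 CPM of Bcl3 against 70.8 to 107.

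The other libraries were spread over genes and times. Lung 48 hr replicate 2 held 10.5 CPM of Nfkb2 against 71.5 to 172, and lung 48 hr replicate 4 held 732 CPM of Nfkbia against 6638 to 9249. The library labelled heart 72 hr replicate 1 held 12.8 CPM of Nfkbie against 28.0 to 32.1. At 168 hr, brain replicate 4 held 9.70 CPM of Relb against 15.0 to 16.1, brain replicate 5 held 35.2 CPM of Tnip1 against 30.0 to 30.8, and lung replicate 1 held 7.08 CPM of Nfkbie against 4.47 to 4.72.

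The change at 6 hr differed between tissues in 5 cases by the test of the interaction. The brain minus lung difference of Rela was 1.71. The lung minus heart differences were 2.04 for Nfkb1, -2.67 for Rela, -1.70 for Relb and -3.17 for Nfkbiz, all on the log2 scale.

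The 18 libraries left out for few reads on genes entered no comparison but held signal for some genes at 6 hr, given here as CPM of the raw library size. In brain a left-out 6 hr library held 49.3 CPM of Nfkb2, 80.1 of Nfkbia and 20.0 of Tnip1, against 13.7, 13.7 and 0 at 0 hr. In heart a left-out 6 hr library held 88.0 CPM of Nfkbia, 19.7 of Tnfaip3 and 51.6 of Tnip1, against 4.76, 1.59 and 3.17 at 0 hr. In lung the left-out 6 hr library held no count of any of the 10 genes, which allows up to 3 counts. The left-out lung 0 hr library held none either. Kept 0 hr libraries, on the TMM scale, held 1297 to 4780 CPM of Nfkbia in lung, 132 to 406 in brain and 220 to 387 in heart. The left-out 0 hr levels of Nfkbia lay far below these, so levels in left-out libraries are not comparable with those in kept ones.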

How the results depend on the processing

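None of the 74 calls changed direction under the alternatives run for it. The median over the 10 genes did change sign in some comparisons, among them lung minus heart at 0 hr (-0.39 to 0.22 with series fitted in each tissue) and, without the covariate, brain at 24 against 6 hr (-0.29 to 0.69) and brain at 168 hr (-0.16 to 0.43). Of the 74 calls, DESeq2 kept 70, RLE scaling 69, all 98 libraries 69, libraries of at least 1000000 counts 72, limma-voom 53, the replicate block 58, no covariate 67, no low-count filter 74 and leaving out the series 1 libraries at 6 hr 74, and library series fitted in each tissue kept 12 of the 20 calls it concerns. The series 1 libraries at 6 hr were singled out by low Lcn2, so the 74 calls kept without them are not independent support. Of 50 gene and time combinations in lung, 5 were called, against 14 with DESeq2 and 8 with RLE scaling. Of 50 in heart, 19 were called, against 31 without the low-count filter and 32 without the series 1 library at 6 hr. Between 24 and 6 hr 1 of 30 was called, against 6 with DESeq2, 8 without the filter, 0 with limma-voom, 5 without the covariate, 2 with all 98 libraries and 9 without the series 1 libraries. For differences in response between tissues at 6 hr, 5 of 30 were called, against 10 without the filter, 2 with limma-voom, 3 with all 98 libraries, 3 with libraries of at least 1000000 counts, 10 without the series 1 libraries and 3 with series fitted in each tissue. At 24 hr 0 were called, against 1 with DESeq2, 2 without the filter and 3 without the series 1 libraries, and at 48 hr 0, against 1 without the filter and 1 without the series 1 libraries. The cause of these shifts was not tested. Leaving out 1 library at a time gave 25 (without brain 0 hr replicate 1) to 34 calls (without brain 6 hr replicate 6) in brain against 29, 2 (without lung 0 hr replicate 3) to 9 (without lung 6 hr replicate 3) in lung, 16 (without heart 0 hr replicate 1) to 32 (without heart 6 hr replicate 5) in heart, and 0 (without heart 24 hr replicate 2) to 9 (without heart 6 hr replicate 5) between 24 and 6 hr. It was not run for the fit over all tissues. Lung at 24 hr has 2 libraries, which limits every comparison there.

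With the replicate block, calls went from 29 to 22 in brain, 5 to 4 in lung and 19 to 14 in heart, stayed at 1 between 24 and 6 hr and at 15 between tissues at 0 hr, and went from 5 to 4 for differences in response at 6 hr, with 0 at 24 and 48 hr. Same-numbered libraries of a tissue at different times had a median correlation of 0.002 over 151 pairs, 47 of them over 0.1, so the numbers were not taken to pair the libraries. Same-numbered libraries of different tissues at 1 time had a median correlation of 0.152 over 73 pairs, 44 of them over 0.1, against -0.031 and 59 of 293 pairs for other numbers, and 0.061 and 27 with library series removed. The fits over all tissues treat these libraries as independent.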
